A study of Homo sapiens with 24 samples.

Results

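The BMP and TGF-beta ligands and antagonists described here were 9 genes chosen by name: BMP2, BMP4, BMP7, GREM1, INHBA, INHBB, TGFB1, TGFB2 and TGFB3. Each had a row in both deposited tables, which list 28277 genes each, and 8 of the 9 had enough reads to be tested (GREM1 did not). The tables hold RNA-seq read counts of 24 libraries in 8 conditions with 3 replicates each, from a pair of ovarian adenocarcinoma cell lines: PEO1, platinum sensitive, and PEO4, platinum resistant, both established from the same person's tumour. In pair A both lines carried the label WT and neither was treated; WT PEO1 lacks BRCA2 function and PEO4 has it. In pair B, the PEO1 cells (PEO1 BRCA2+) had regained BRCA2 function by a spontaneous reversion, PEO4 was again WT, and both PEO1 BRCA2+ and PEO4 were sampled untreated and after 2 and 6 h in 5 µM pyridostatin (PDS), a small molecule that binds and stabilises DNA G-quadruplexes. Each condition was thus 1 cell line grown 3 times, with no second line of the same state. No PDS-treated library of PEO1 without BRCA2 function was analysed here, and an untreated culture was the control at both times.

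TGF-beta family ligands are secreted dimers that bind paired serine/threonine kinase receptors, which phosphorylate SMAD transcription factors. BMPs act mainly through one set of SMADs and switch on the ID genes and the inhibitory SMADs, whereas the TGF-betas and activins act through another and switch on genes such as PMEPA1 and TGFBI. INHBA and INHBB encode the beta subunits that form activins as pairs and inhibins when joined to an alpha subunit. GREM1 encodes gremlin, a secreted protein that binds BMPs and keeps them from their receptors. In ovarian carcinoma, TGF-beta signalling is known for its part in the epithelial to mesenchymal transition.

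Because PDS binds G-quadruplexes, the letters of the members' promoters are shown first. RefSeq promoter windows (GRCh38.p14, 250 bases before to 50 bases after a start site) were on hand for 7 of the 9 members, in 11 windows, and none for BMP2 and BMP7. The G-quadruplex motif searched was 4 runs of at least 3 G separated by 1 to 7 bases, on either strand. It was present in 5 of the 7 members (BMP4, GREM1, INHBB, TGFB1 and TGFB3), in 5 of their 11 windows, against 25% of 35116 promoter windows in all. INHBB held 4 matches, 1 on its own strand and 3 on the other. The match nearest the start site on each strand, for 4 of the members described below, is printed 5′ to 3′ on the gene's strand, with the runs in capitals (C runs are G runs of the opposite strand).
BMP4: GGGGcGGGcccgcgaGGGGcGGGGGG
INHBB, own strand: GGGcGGGcgcGGGcgcGGG
INHBB, opposite strand: CCCggagCCCggagCCCggCCC
TGFB1: CCCagCCCCCCCatgCCCtCCCCC
TGFB3: CCCtCCCtCCCCCaCCCC
They lie at chr14:53953542-53953567 (minus strand) for BMP4, chr2:120346066-120346084 and chr2:120346108-120346129 (plus strand) for INHBB, chr19:41354010-41354033 (minus strand) for TGFB1 and chr14:75982052-75982069 (minus strand) for TGFB3. The matches of BMP4 and TGFB3 lie inside the spans of these genes given below, ahead of inner start sites. Both genes have windows at other starts too, which held no match. The windows of INHBA and TGFB2 did not hold these letters. A match is only a description of sequence, and no binding was measured in these files.

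The members lie at separate loci. By RefSeq on GRCh38, BMP2 is at chr20:6767686-6780246 and BMP7 on the same chromosome at chr20:57168753-57266641, while BMP4 (chr14:53949736-53956891) and TGFB3 (chr14:75958097-75983011) share chromosome 14. INHBA is at chr7:41685114-41705406, INHBB at chr2:120346136-120351803, TGFB1 at chr19:41330323-41353922, TGFB2 at chr1:218345336-218444619 and GREM1 at chr15:32718004-32745106. BMP7, INHBA, TGFB1, TGFB2 and TGFB3 overlap other genes that are in the count tables, most of them on the opposite strand, such as BMP7-AS1, INHBA-AS1, TGFB2-AS1 and, for TGFB3, IFT43. The strand setting of the counting was not given in the sources used here, so reads of those overlapping genes could not be told apart from reads of the members, and values of these 5 members are uncertain to that extent.

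Library totals ranged from 18699929 to 63882077 counts. In pair B every untreated library was shallower (18699929 to 22375644) than every PDS library (33260167 to 43713947), and the share of reads on rRNA genes was higher (0.217% to 0.474% against 0.0163% to 0.0369%). Both differences move with treatment. Their part in the PDS results was not tested beyond depth: with each library thinned to the lowest total, the number of members called was the same in all 11 comparisons. The library of untreated PEO4, pair B, replicate 2 stood apart from its 2 partners for several members, so values without it are given below. All 8 markers of ovarian carcinoma and epithelium reached a mean of at least 1 CPM (a gene's reads scaled to the size of its library) in every condition. Of 6 fibroblast markers, 3 did so in untreated PEO4 of pair B, where their summed level was 36.3 to 38.6 CPM, against 5.14 to 7.19 CPM in untreated PEO1 BRCA2+ and 3.70 to 4.91 CPM in PEO4 after 6 h of PDS. DCN was at 0 after PDS in PEO4, and COL3A1 and LUM were at 0 in PEO1 BRCA2+. In untreated PEO4 of pair B DCN and LUM were themselves at only 0.0768 and 0.241 CPM. In pair B the sum moved with the BMP transcripts described below. It was carried by collagens (COL1A1 22.1, COL1A2 8.04 and COL3A1 6.80 CPM in untreated PEO4). PDGFRB had a mean under 1 CPM in every condition of pair B. It was 0.152 ± 0.193 CPM in untreated PEO4 and 0.278 CPM in untreated PEO1 BRCA2+. In PEO4 its 2 h mean lay above the untreated one (0.295 CPM), and its 6 h mean below (0.0641 CPM), as the sum did. In pair A the sum ran the other way, at 32.6 to 36.9 CPM in PEO1 and 8.38 to 13.4 CPM in PEO4, where BMP7 was higher in PEO4. COL1A2 went against that sum, at 0.175 CPM in PEO1 and 2.68 CPM in PEO4. PDGFRB went with it, at 3.25 CPM in PEO1 and 0.0993 CPM in PEO4. The endothelial list (4 markers, CDH5 at 0 in PEO4) was low throughout and also moved in PEO4 of pair B, from 1.61 to 2.76 CPM in sum untreated to 0.183 to 0.209 CPM at 6 h, against 0.575 to 1.16 CPM in untreated PEO1 BRCA2+. The part of either list in the results was not tested. In whole-culture RNA, fewer cells making a transcript and less of it per cell cannot be told apart. Among leukocyte markers CD3E was at 0 in every library and only CD68 reached 1 CPM.

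**Figure D1:**
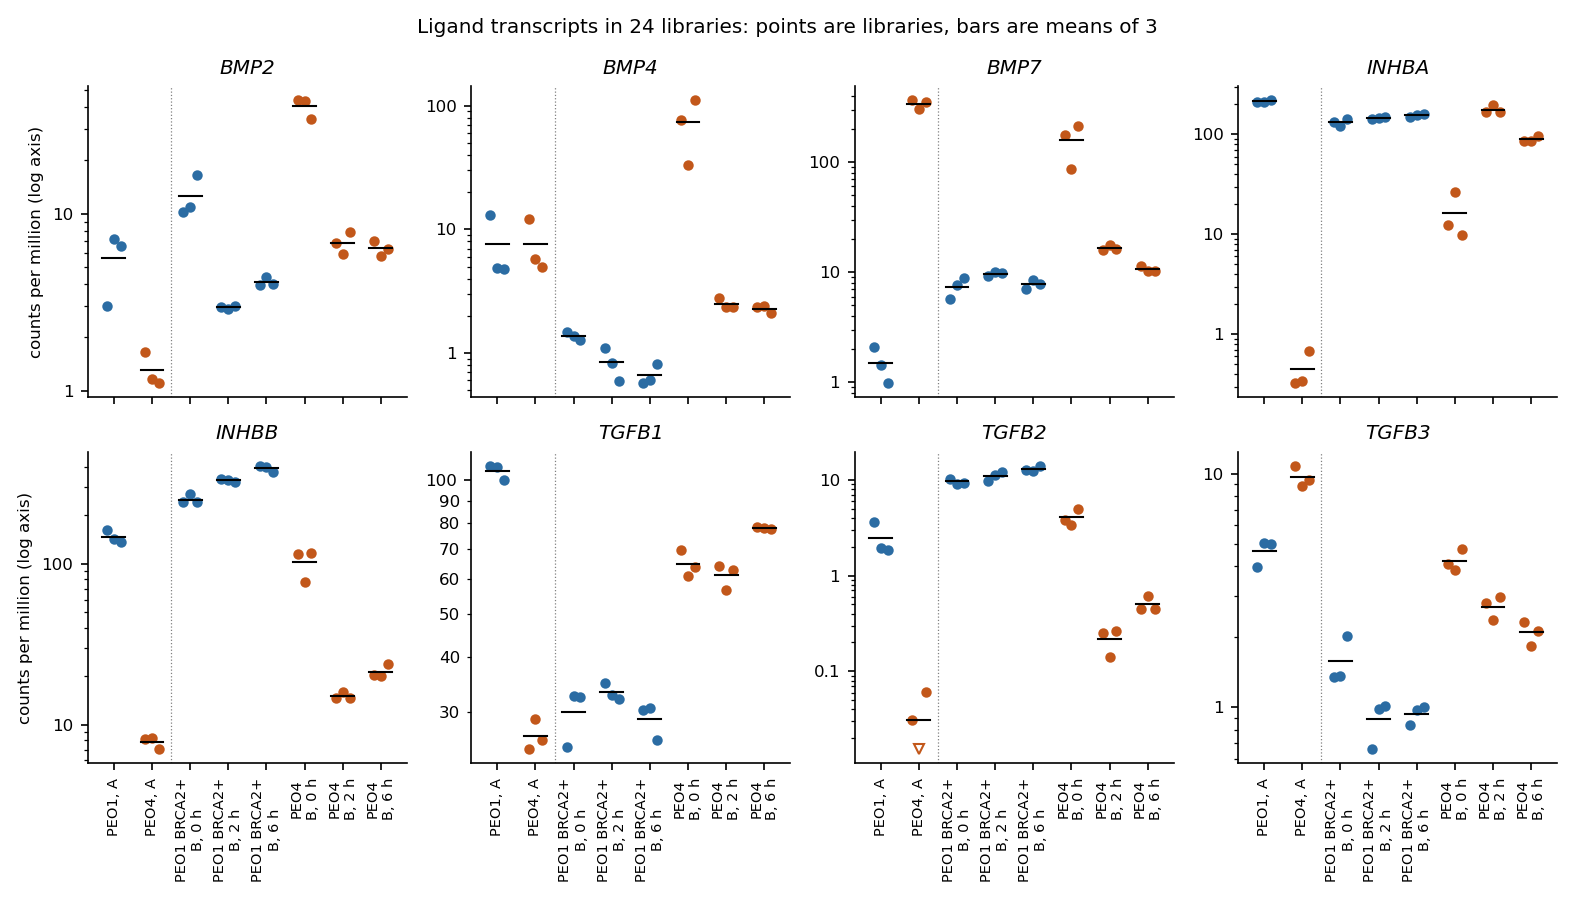
Level of each tested ligand in every library, in CPM on a log axis, for the 8 conditions (A and B are the pairs, hours are time in PDS); points are libraries, bars the means of 3, and the open triangle marks a library with 0 counts. BMP4 and BMP7 are high in untreated PEO4 of pair B and low after PDS, INHBA runs the other way, and TGFB1 in PEO4 of pair B stays between 56.7 and 78.5 CPM.

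The ligand that made up most of the set differed between conditions. Levels were compared between genes as CPM per kilobase of the canonical transcript, summed over the 8 tested ligands. In pair A, PEO1 was led by INHBB (36.2% ± 1.44 of the sum, SD, n = 3), TGFB1 (29.8% ± 1.02) and INHBA (28% ± 2.02), whereas BMP7 alone made up 81.5% ± 1.74 of the sum in PEO4. In untreated PEO1 BRCA2+, INHBB made up 65.7% ± 2.82 and INHBA 18.4% ± 1.88. Untreated PEO4 of pair B was mixed, with BMP7 at 25.8% ± 4.14, BMP4 at 24.2% ± 7.36, INHBB at 21.9% ± 1.71 and TGFB1 at 16.5% ± 4.42. After 2 h of PDS INHBA led in PEO4 (45.5% ± 3.22) and after 6 h TGFB1 did (50.3% ± 1.37). INHBB led PEO1 BRCA2+ throughout, with 74.3% ± 1.06 at 6 h. The length-scaled sum itself went from 149 ± 41.3 CPM per kilobase in untreated PEO4 to 64.1 ± 1.52 at 2 h and 55.9 ± 1.29 at 6 h, and from 119 ± 5.18 to 145 ± 2.28 and 164 ± 5.89 in PEO1 BRCA2+. Shares add up to a fixed total, so a lower share of one ligand raises the others.

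**Figure D2:**
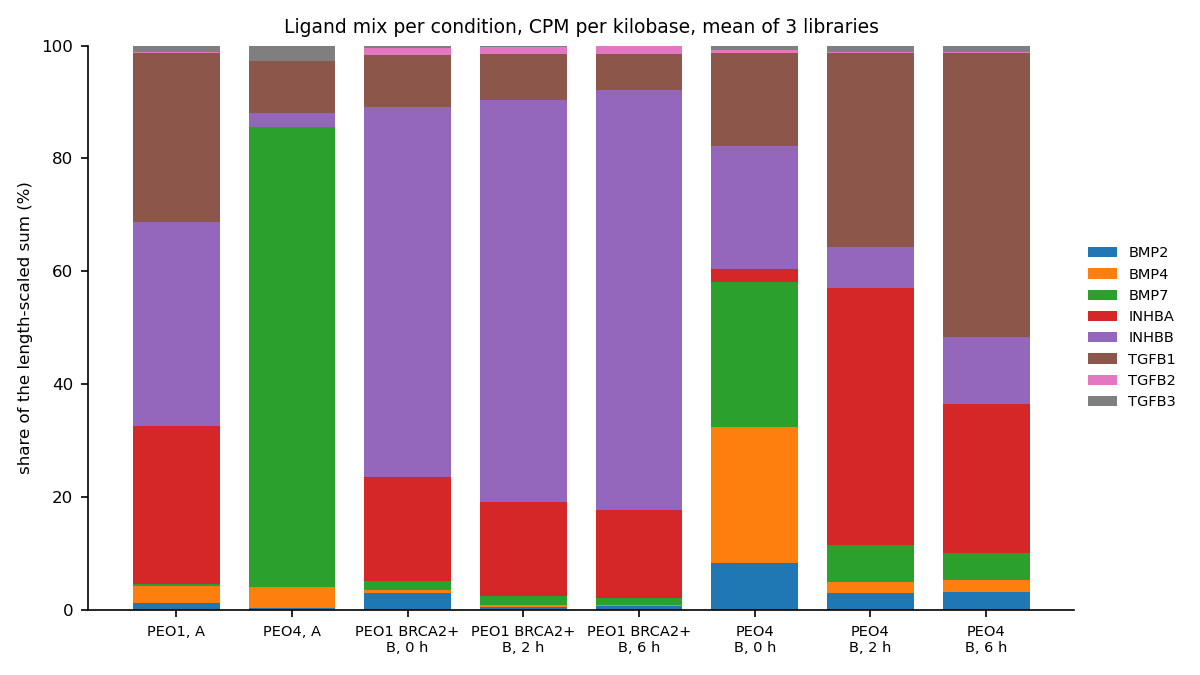
Share of each of the 8 tested ligands in their length-scaled sum (CPM per kilobase, percent), as the mean of 3 libraries per condition. BMP7 fills 81.5% of the bar of PEO4 in pair A, and INHBB fills 65.7% to 74.3% of the 3 bars of PEO1 BRCA2+.

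The first question was how the resistant and sensitive lines differed without treatment. Called genes are those that passed an adjusted p of 0.05 (edgeR quasi-likelihood test, Benjamini-Hochberg adjustment) and differed by more than 1 on the log2 scale. In pair A, 2 members were higher and 5 lower in PEO4, that is 7 of 8 tested, against 25.8% of all genes tested, with a median log2 fold change of -2.02 against about 0 over all genes. In pair B, 5 were higher and 3 lower in PEO4, 8 of 8, against 24.8% of all genes, with a median of 1.27. BMP7, TGFB3, INHBA, INHBB and TGFB2 differed in the same direction in both pairs, whereas BMP2 and TGFB1 were lower in PEO4 in pair A and higher in pair B.

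**Figure D3:**
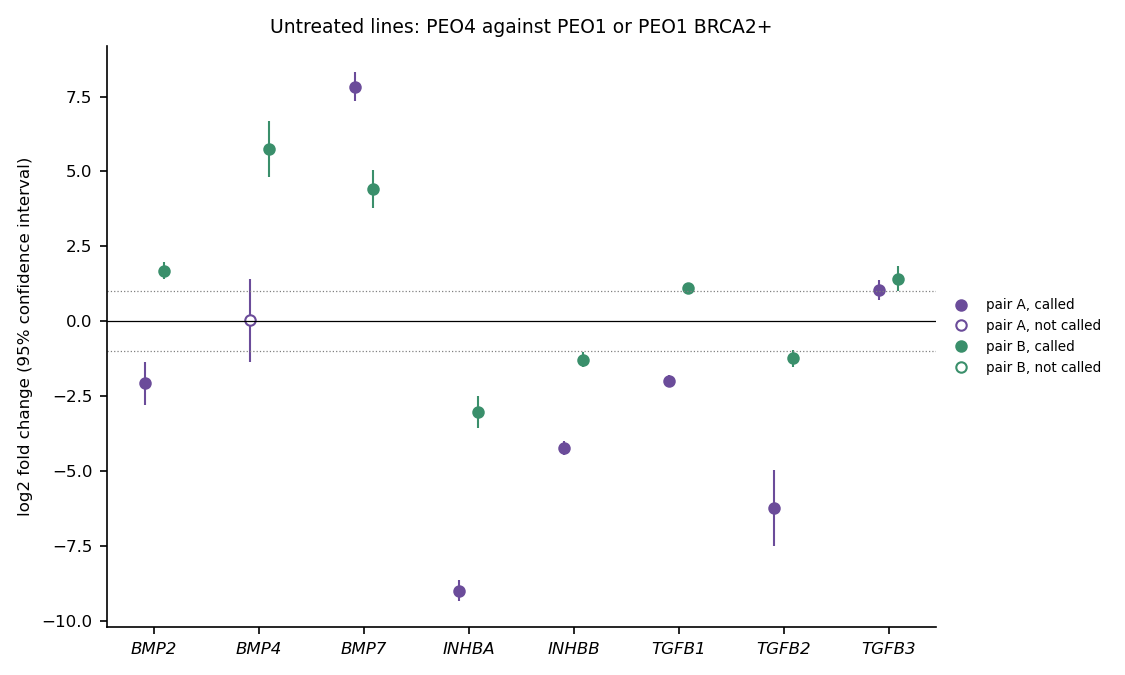
Log2 fold change of PEO4 over PEO1 (pair A) or over PEO1 BRCA2+ (pair B), untreated, with 95% confidence intervals; filled points were called, dotted lines mark -1 and 1. BMP2 and TGFB1 lie on opposite sides of 0 in the 2 pairs, and the pair A value of TGFB2 rests on 0 to 2 counts per PEO4 library.

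Among the BMPs, BMP7, an inducer of kidney and bone development that is also made by epithelial tumours, stood out in PEO4. In pair A its level was 2.09, 1.44 and 0.977 CPM in PEO1 and 365, 306 and 350 CPM in PEO4 (log2 fold change 7.83 ± 0.22 SE, adjusted p = 2.69e-09). In pair B it was 5.75, 7.64 and 8.78 CPM in PEO1 BRCA2+ and 178, 87.2 and 212 CPM in PEO4 (4.42 ± 0.29, adjusted p = 1.11e-08). Every PEO4 library was above every PEO1 library. BMP4, which patterns mesoderm and signals through the same receptors as BMP2, did not differ detectably in pair A, with 13.0, 4.91 and 4.77 CPM in PEO1 and 12.1, 5.73 and 4.96 CPM in PEO4 (0.03, 95% interval -1.37 to 1.42, adjusted p = 0.970). Replicate 1 of both lines was the high library. In pair B BMP4 was 1.49, 1.36 and 1.27 CPM in PEO1 BRCA2+ and 76.1, 33.1 and 111 CPM in PEO4 (5.74 ± 0.43, adjusted p = 4.58e-08). The groups did not overlap, although the PEO4 libraries spanned more than a 3-fold range. BMP2, the closest relative of BMP4, was 3.01, 7.20 and 6.57 CPM in PEO1 against 1.65, 1.16 and 1.10 CPM in PEO4 of pair A (-2.07 ± 0.33, adjusted p = 0.000183). In pair B it was 10.3, 10.9 and 16.5 CPM in PEO1 BRCA2+ against 43.8, 43.3 and 34.2 CPM in PEO4 (1.69 ± 0.14, adjusted p = 3.95e-10). BMP2 was thus low in PEO4 in one pair and high in the other, with no overlap in either. Without untreated PEO4 replicate 2, the pair B values were 6.09 for BMP4, 4.71 for BMP7 and 1.64 for BMP2.

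The activin subunits were lower in PEO4 in both pairs. INHBA, the subunit of activin A, was 211, 211 and 220 CPM in PEO1 and 0.323, 0.340 and 0.673 CPM in PEO4 of pair A (-8.99 ± 0.16, adjusted p = 1.31e-12), the widest difference of any member in any comparison. In pair B it was 133, 122 and 142 CPM in PEO1 BRCA2+ and 12.4, 26.7 and 9.76 CPM in PEO4 (-3.04 ± 0.25, adjusted p = 1.14e-07). Untreated PEO4 replicate 2 was the high one, and without it the log2 difference was -3.57. INHBB, the subunit of activin B, was 163, 142 and 136 CPM in PEO1 and 8.13, 8.31 and 7.07 CPM in PEO4 of pair A (-4.23 ± 0.10, adjusted p = 9.33e-12). In pair B it was 242, 270 and 241 CPM in PEO1 BRCA2+ and 115, 76.8 and 117 CPM in PEO4 (-1.28 ± 0.12, adjusted p = 3.86e-08). Both subunits were well above background in all lines but PEO4 of pair A, where INHBA was under 1 CPM.

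The TGF-beta isoforms, which share receptors but are made by different cells, did not move as a set. TGFB1, the most widely expressed isoform, was 108, 107 and 100 CPM in PEO1 and 24.8, 29.0 and 26.0 CPM in PEO4 of pair A (-1.98 ± 0.08, adjusted p = 8.74e-10). In pair B it was 25.1, 32.7 and 32.6 CPM in PEO1 BRCA2+ and 69.8, 60.9 and 63.8 CPM in PEO4 (1.10 ± 0.08, adjusted p = 2.18e-11). It fell under the fold threshold there without PEO1 BRCA2+ replicate 1 (0.99). TGFB2 was 3.60, 1.95 and 1.86 CPM in PEO1 of pair A, and PEO4 held 2, 0 and 2 counts. Against a floor of 3 counts per library it was at least 33.2-fold lower (adjusted p = 1.29e-06). In pair B TGFB2 was 10.3, 9.17 and 9.39 CPM in PEO1 BRCA2+ and 3.81, 3.41 and 4.97 CPM in PEO4 (-1.24 ± 0.14, adjusted p = 1.68e-08). TGFB3 was the only isoform higher in PEO4 in both pairs. Its levels were 3.97, 5.04 and 4.98 CPM in PEO1 and 10.8, 8.82 and 9.39 CPM in PEO4 of pair A (1.06 ± 0.15, adjusted p = 7.00e-05), and it fell under the fold threshold without PEO1 replicate 1 (0.95) or PEO4 replicate 1 (0.97). In pair B they were 1.34, 1.36 and 2.02 CPM in PEO1 BRCA2+ and 4.11, 3.87 and 4.74 CPM in PEO4 (1.43 ± 0.20, adjusted p = 6.20e-07).

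Whether the line difference was the same in the 2 pairs was tested in a joint model of the 12 untreated libraries. Here the signed log2 fold change of PEO4 over the PEO1 line in pair A was subtracted from that in pair B, so a positive value can also come from a gene that was lower in PEO4 in both pairs and less so in pair B. The result was positive for 6 members and negative for 1, against 13.8% of all genes called. INHBA, INHBB and TGFB2 were of that kind. INHBA differed most, by 5.95 ± 0.56 on the log2 scale (adjusted p = 4.40e-05), followed by BMP4 (5.70 ± 0.95) and TGFB2 (4.95 ± 0.60, which rests on the 0 to 2 counts of PEO4 in pair A). BMP2 differed by 3.73 ± 0.45, TGFB1 by 3.09 ± 0.14 and INHBB by 2.94 ± 0.20. BMP7, higher in PEO4 in both pairs, was the 1 member with a negative value (-3.41 ± 0.54, adjusted p = 0.00117), and TGFB3 was not called (0.37, 95% interval -0.18 to 0.93). The pairs differed in the BRCA2 state of PEO1 and were counted in separate tables, the library kit was stated for pair A alone, and sodium pyruvate was added to the medium of both lines in pair A. These cannot be told apart here. A level shift shared by both lines of a pair cancels in this contrast, but PEO4 itself, nominally the same line, was 340.5 ± 30.7 CPM for BMP7 and 0.446 ± 0.197 CPM for INHBA in pair A, and 159 ± 64.3 and 16.3 ± 9.12 CPM in pair B. BMP2 in PEO4 was 1.30 ± 0.300 CPM in pair A and 40.4 ± 5.43 CPM in pair B, and TGFB1 26.6 ± 2.15 and 64.8 ± 4.52 CPM. The PEO1 lines of pairs A and B also differed, at 5.60 and 12.5 CPM for BMP2 and 105 and 30.1 CPM for TGFB1.

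The second question was what PDS did to these transcripts. In PEO1 BRCA2+ 1 member, BMP2, was called at each time, in both cases lower, against 7.57% of all genes at 2 h and 8.13% at 6 h. In PEO4 1 member rose and 5 fell at 2 h, 6 of 8 against 17.4% of all genes, with a median log2 fold change of -2.66. At 6 h 1 rose and 6 fell, 7 of 8 against 22.6% of all genes, with a median of -2.46. The 2 times share the untreated libraries, so they are not independent. Fold changes are relative to the bulk of genes, and the median over all genes in these 4 comparisons lay between -0.028 and 0, or between -0.13 and -0.19 with scaling by library totals.

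**Figure D4:**
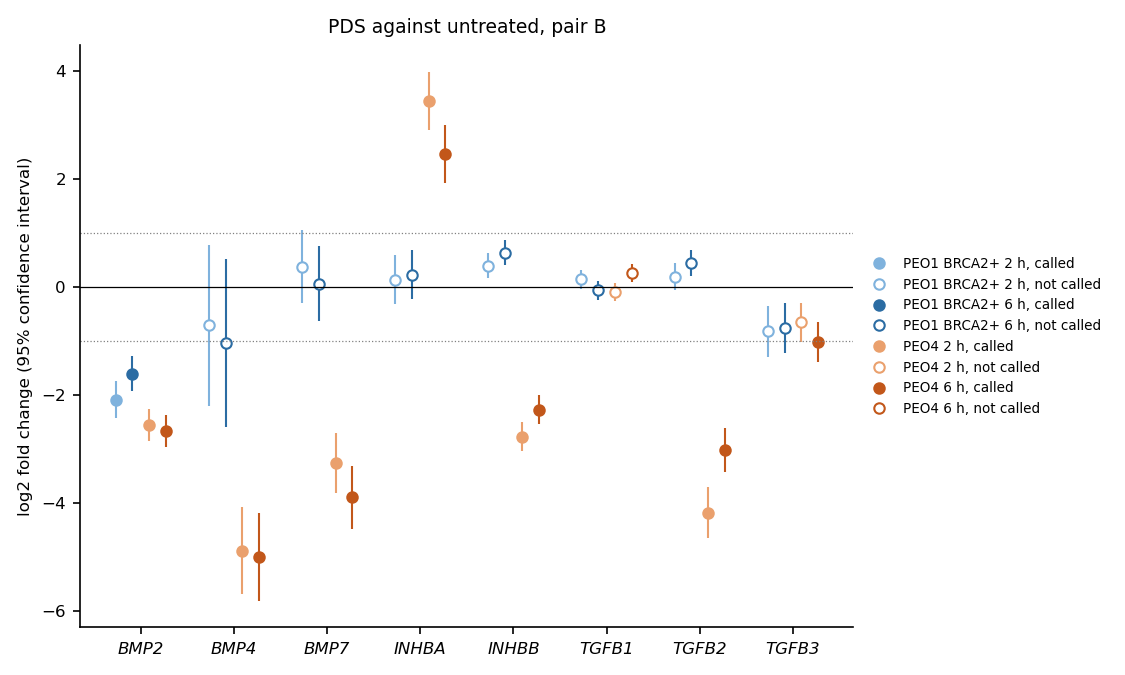
Log2 fold change after PDS against untreated in each line of pair B at 2 and 6 h, with 95% confidence intervals; filled points were called, dotted lines mark -1 and 1. BMP4, BMP7, INHBB and TGFB2 fell and INHBA rose in PEO4, while in PEO1 BRCA2+ BMP2 alone was called.

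BMP2 was the member that fell in both lines. It went from 10.3, 10.9 and 16.5 CPM to 2.96, 2.90 and 3.01 CPM at 2 h in PEO1 BRCA2+ (-2.09 ± 0.16, adjusted p = 1.43e-09) and was 3.96, 4.40 and 4.02 CPM at 6 h (-1.61 ± 0.16, adjusted p = 2.86e-08). In PEO4 it went from 43.8, 43.3 and 34.2 CPM to 6.80, 5.92 and 7.85 CPM at 2 h (-2.56 ± 0.14, adjusted p = 1.23e-12) and 7.03, 5.80 and 6.28 CPM at 6 h (-2.66 ± 0.14, adjusted p = 5.36e-13). No treated library overlapped an untreated one of its line. BMP4 in PEO4 went from 76.1, 33.1 and 111 CPM to 2.78, 2.35 and 2.35 CPM at 2 h (-4.88 ± 0.37, adjusted p = 7.18e-08) and 2.36, 2.41 and 2.09 CPM at 6 h (-5.0 ± 0.38). This was the largest fall of any member, and it left BMP4 at 2.09 to 2.78 CPM, above the 1.27 to 1.49 CPM of untreated PEO1 BRCA2+. In the latter line BMP4 was 1.10, 0.827 and 0.597 CPM at 2 h and 0.569, 0.606 and 0.822 CPM at 6 h, not called at either time (-0.71, 95% interval -2.20 to 0.78, and -1.04, -2.60 to 0.52). The intervals are wide enough to hold a fall beyond the fold threshold. BMP7 in PEO4 went from 178, 87.2 and 212 CPM to 15.8, 17.8 and 16.3 CPM at 2 h (-3.26 ± 0.25, adjusted p = 1.02e-07) and 11.4, 10.2 and 10.2 CPM at 6 h (-3.90 ± 0.27). In PEO1 BRCA2+ BMP7 was between 5.75 and 9.93 CPM in all 9 libraries and was not called (0.38, 95% interval -0.30 to 1.06, at 2 h, and 0.07, -0.63 to 0.76, at 6 h). Without untreated PEO4 replicate 2 the 2 h values in PEO4 were -5.23 for BMP4, -3.55 for BMP7 and -2.50 for BMP2.

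The activin subunits parted in PEO4. INHBA rose from 12.4, 26.7 and 9.76 CPM to 167, 196 and 167 CPM at 2 h (3.45 ± 0.25, adjusted p = 4.16e-08) and was 85.5, 86.6 and 95.8 CPM at 6 h (2.47 ± 0.24, adjusted p = 8.42e-07). It was the 1 member that rose, and every treated library was more than 3 times the highest untreated one. INHBB fell from 115, 76.8 and 117 CPM to 14.7, 16.1 and 14.6 CPM at 2 h (-2.77 ± 0.13, adjusted p = 1.20e-11) and 20.3, 20.1 and 23.8 CPM at 6 h (-2.27 ± 0.12). In PEO1 BRCA2+ INHBA was 133, 122 and 142 CPM untreated, 142, 147 and 148 CPM at 2 h and 151, 155 and 161 CPM at 6 h, not called at either time (0.14, 95% interval -0.32 to 0.60, and 0.23, -0.22 to 0.69). INHBB went from 242, 270 and 241 CPM to 339, 331 and 323 CPM and 406, 399 and 370 CPM there. Those increases passed the adjusted p (0.40 ± 0.11, adjusted p = 0.00691, and 0.64 ± 0.11, adjusted p = 0.000148) but not the fold threshold. With scaling by library totals the 2 h value of INHBB there was 0.25 (edgeR adjusted p = 0.0847), so it no longer passed. At 2 h the INHBA libraries of PEO4 (167 to 196 CPM) lay above those of PEO1 BRCA2+ (142 to 148 CPM), whereas untreated they lay below.

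Of the TGF-beta isoforms, TGFB2 fell the most in PEO4, from 3.81, 3.41 and 4.97 CPM to 0.250, 0.142 and 0.264 CPM at 2 h (-4.18 ± 0.23, adjusted p = 8.59e-14) and 0.453, 0.610 and 0.449 CPM at 6 h (-3.02 ± 0.20). The treated levels of TGFB2 in PEO4 rest on 5 to 11 counts per library at 2 h and 15 to 20 at 6 h. In PEO1 BRCA2+ TGFB2 was 10.3, 9.17 and 9.39 CPM untreated, 9.66, 11.3 and 12.1 CPM at 2 h and 12.7, 12.5 and 14.0 CPM at 6 h, and was not called (0.20, 95% interval -0.05 to 0.44, and 0.44, 0.20 to 0.69, the latter past the adjusted p alone). TGFB1 was not called in either line at either time. In PEO4 it was 69.8, 60.9 and 63.8 CPM untreated, 64.2, 56.7 and 62.7 CPM at 2 h (-0.08, 95% interval -0.25 to 0.08) and 78.5, 78.3 and 77.7 CPM at 6 h (0.27, 0.11 to 0.43, past the adjusted p alone). With scaling by library totals the 6 h value of TGFB1 in PEO4 was 0.11 (edgeR adjusted p = 0.213). In PEO1 BRCA2+ its 9 libraries lay between 25.1 and 34.9 CPM, with values of 0.14 and -0.06. TGFB3 was lower after PDS in both lines. In PEO4 it went from 4.11, 3.87 and 4.74 CPM to 2.78, 2.35 and 2.95 CPM at 2 h (-0.65 ± 0.17, adjusted p = 0.00198, not called) and 2.31, 1.83 and 2.12 CPM at 6 h (-1.02 ± 0.18, adjusted p = 1.90e-05, called). The 6 h call was lost without untreated PEO4 replicate 3 (-0.92) or PEO4 6 h replicate 2 (-0.92), and with no filter on low counts (-0.98). In PEO1 BRCA2+ TGFB3 values were -0.82 ± 0.23 and -0.75 ± 0.23, past the adjusted p and within the fold threshold. With 1 library left out the edgeR adjusted p there reached 0.0554 at 2 h and 0.0861 at 6 h.

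Between 2 and 6 h of PDS members were called at about the share of all genes. In PEO1 BRCA2+ edgeR called 0 of 8 members, against 0.170% of all genes, and DESeq2 also called 0. The adjusted p alone passed 0 members, against 1182 of all 17020 genes. At an unadjusted p under 0.05 there were 4 (BMP2, INHBB, TGFB1 and TGFB2), with edgeR adjusted p of 0.115 to 0.235. The share of all genes at that unadjusted p was not counted, so no change is read from these 4. The furthest was BMP2 at 0.48 ± 0.18. In PEO4 1 member was called, against 12% of all genes: TGFB2 rose by 1.16 ± 0.32 (adjusted p = 0.00320), a call lost without PEO4 2 h replicate 2 (0.95). INHBA was just inside the fold threshold (-0.98 ± 0.21, adjusted p = 0.00131) and was called without PEO4 2 h replicate 1 (-1.02) or 3 (-1.02) or PEO4 6 h replicate 3 (-1.03). TGFB1 (0.35 ± 0.08) and INHBB (0.50 ± 0.13) passed the adjusted p alone.

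The lines' responses were compared directly as the PDS effect in PEO4 less that in PEO1 BRCA2+. At 2 h 1 member responded more positively in PEO4 and 4 more negatively, 5 of 8 against 11.0% of all genes. At 6 h these were 1 and 5, 6 of 8 against 14.8%. TGFB2 differed by -4.38 ± 0.26 at 2 h (adjusted p = 5.17e-12) and -3.46 ± 0.23 at 6 h, INHBB by -3.17 ± 0.17 and -2.91 ± 0.17, BMP7 by -3.64 ± 0.40 and -3.97 ± 0.41, and BMP4 by -4.17 ± 0.83 and -3.96 ± 0.89. INHBA differed the other way, by 3.31 ± 0.32 (adjusted p = 3.91e-06) and 2.24 ± 0.32. BMP2, which fell in both lines, differed by -0.47 at 2 h (95% interval -0.92 to -0.02, adjusted p = 0.0975) and was called at 6 h (-1.05 ± 0.21, adjusted p = 0.000322). That call was lost without PEO1 BRCA2+ untreated replicate 1 (-0.93) or 2 (-0.96), PEO4 untreated replicate 1 (-0.99) or PEO4 6 h replicate 2 (-0.99). TGFB3 was not called (0.17, 95% interval -0.42 to 0.75, and -0.26, -0.86 to 0.34), nor was TGFB1 (-0.23 and 0.32). These contrasts share the untreated libraries with the comparisons above.

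GREM1, the antagonist among the members, was barely detected. No library held more than 8 counts, and 4 of the 24 held 0, so no level or difference could be read at this depth. In pair A the counts were 1, 3 and 3 in PEO1 and 4, 2 and 0 in PEO4 (2-sided exact permutation test, p = 0.7, where 0.1 is the smallest p that 3 against 3 allow). In pair B untreated they were 8, 1 and 4 in PEO1 BRCA2+ and 1, 4 and 0 in PEO4 (exact p = 0.5). Tested without a filter on low counts, GREM1 was called lower after PDS in PEO1 BRCA2+ at both times (adjusted p = 0.0428 at each), on counts of 1, 2 and 0 at 2 h and 1, 1 and 1 at 6 h.

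Other secreted antagonists formed a list of 17 genes. In untreated pair B 4 of the 11 tested were higher and 3 lower in PEO4, against 24.8% of all genes called. CHRDL1, a chordin-like BMP antagonist, was 4.07 ± 0.905 CPM in PEO4 against 101 ± 4.23 CPM in PEO1 BRCA2+ (adjusted p = 2.64e-22). After PDS in PEO4 2 of 11 rose and 4 fell at 2 h (17.4% of all genes called), and 1 rose and 5 fell at 6 h (22.6%). CHRDL1 was among those that rose at 2 h, to 9.39 ± 0.613 CPM (1.21 ± 0.11, adjusted p = 4.09e-10). Follistatin (FST), which traps activins, was 3.91 ± 0.338 CPM in PEO1 and 0.0686 ± 0.0603 CPM in PEO4 of pair A (adjusted p = 1.77e-07). In PEO1 BRCA2+ FST fell from 2.05 ± 0.575 CPM to 0.394 ± 0.0207 CPM at 2 h (adjusted p = 8.57e-07), and in PEO4 it rose from 0.209 ± 0.169 CPM to 0.872 ± 0.193 CPM at 6 h (adjusted p = 9.87e-05). INHBA and FST were thus both lower in PEO4 untreated and both higher there after 6 h. Mean FST in PEO4 was under 1 CPM untreated and at 6 h, below the level set for naming list genes. A link between INHBA and FST was not tested.

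Of 15 tested receptors and co-receptors, 1 was higher and 1 lower in PEO4 in pair A (against 25.8% of all genes called), and 2 higher and 1 lower in pair B (24.8%). After PDS in PEO4 3 fell at 2 h (17.4%), and 1 rose and 3 fell at 6 h (22.6%). BAMBI, a decoy receptor that is itself a BMP target, was 158 ± 76.8 CPM in untreated PEO4 and 43.3 ± 5.64 CPM in untreated PEO1 BRCA2+ (1.87 ± 0.29, adjusted p = 8.22e-05). It fell to 19.4 ± 0.397 CPM at 2 h and 15.5 ± 1.01 CPM at 6 h in PEO4 (-3.35 ± 0.32, adjusted p = 5.47e-07). The other receptor genes that fell there at both times were TGFBR3 (betaglycan, which presents TGFB2; -2.12 ± 0.25 at 2 h) and RGMA (a BMP co-receptor; -1.50 ± 0.12 at 2 h), named after their values were seen.

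Genes for ligand latency, processing and activation formed a list with 18 tested, of which 1 was higher and 12 were lower in PEO4 in pair A, against 25.8% of all genes called. THBS1, which encodes thrombospondin, an activator of latent TGF-beta, was 845 ± 221 CPM in PEO1 and 9.39 ± 0.588 CPM in PEO4 (-6.50 ± 0.20, adjusted p = 5.91e-09), and ITGB8, an integrin subunit that activates latent TGF-beta, was higher in PEO4 (1.38 ± 0.10). In pair B 2 were higher and 7 lower in PEO4, against 24.8%. After PDS in PEO4 2 rose and 2 fell at 2 h (17.4% of all genes called), and 2 rose and 4 fell at 6 h (22.6%). THBS1 rose from 27.3 ± 10.3 CPM to 498 ± 79.4 CPM at 2 h (4.20 ± 0.21, adjusted p = 6.00e-10) and 445 ± 28.7 CPM at 6 h. LRRC32, which holds latent TGF-beta at the cell surface, fell from 3.00 ± 1.36 CPM to 0.387 ± 0.133 CPM and 0.0460 ± 0.0147 CPM.

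Textbook SMAD target genes formed a list of 15, in which BMP and TGF-beta targets are mixed. Ligand protein and SMAD activity were not measured, and a link between these genes and the ligand transcripts was not tested. In pair A 2 of 14 tested were higher and 5 lower in PEO4 (against 25.8% of all genes called), with a median log2 fold change of -0.67. In pair B 6 of 15 were higher and 2 lower (24.8%), with a median of 0.87. The signed log2 fold change of PEO4 over the PEO1 line was more positive, or less negative, in pair B than in pair A for 11 of the 14 tested in both, against the 13.8% of all genes given above. ID4, a BMP target, was 767 ± 46.1 CPM in PEO4 of pair A and 751 ± 41.4 CPM in PEO4 of pair B, against 64.7 ± 11.0 CPM in PEO1 and 29.5 ± 7.25 CPM in PEO1 BRCA2+. TGFBI, a TGF-beta target, was lower in PEO4 in both pairs (-7.88 ± 0.22 and -3.19 ± 0.07). After PDS in PEO4 3 of 15 rose and 2 fell at 2 h (17.4% of all genes called), and 2 rose and 7 fell at 6 h (22.6%). The 7 were ID1, ID2, ID3, ID4, MSX2, SMAD6 and SMAD7, all known to answer to BMPs (SMAD7 also to TGF-beta). Those that rose included PMEPA1, known to answer to TGF-beta and activin. TGFBI, given above as a TGF-beta target, was not called in PEO4 at 6 h, so the TGF-beta targets of the list did not move together. MSX1, also on the list, was not among the 7 and was called higher at 6 h than at 2 h. MSX2 fell from 86.5 ± 30.6 CPM to 4.34 ± 0.995 CPM (-4.31 ± 0.26, adjusted p = 2.59e-09) and SMAD6 from 278 ± 46.7 CPM to 35.8 ± 1.92 CPM (-2.95 ± 0.10). PMEPA1 rose from 123 ± 23.5 CPM to 483 ± 9.15 CPM (1.98 ± 0.09, adjusted p = 2.47e-14). CCN2 rose at 2 h (2.78 ± 0.31) and was not called at 6 h (-0.44 ± 0.30). In PEO1 BRCA2+ 1 fell at 2 h (7.57% of all genes called), and 1 rose and 4 fell at 6 h (8.13%). SMAD6 fell there at both times (-1.47 ± 0.10 and -1.74 ± 0.10), and ID1 (-1.63 ± 0.13) and ID2 (-1.71 ± 0.09) fell at 6 h. A fall of ID1, ID2 and SMAD6 was therefore not particular to PEO4. They are among the 4 that fell in PEO1 BRCA2+ at 6 h, and the other is not named here.

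**Figure D5:**
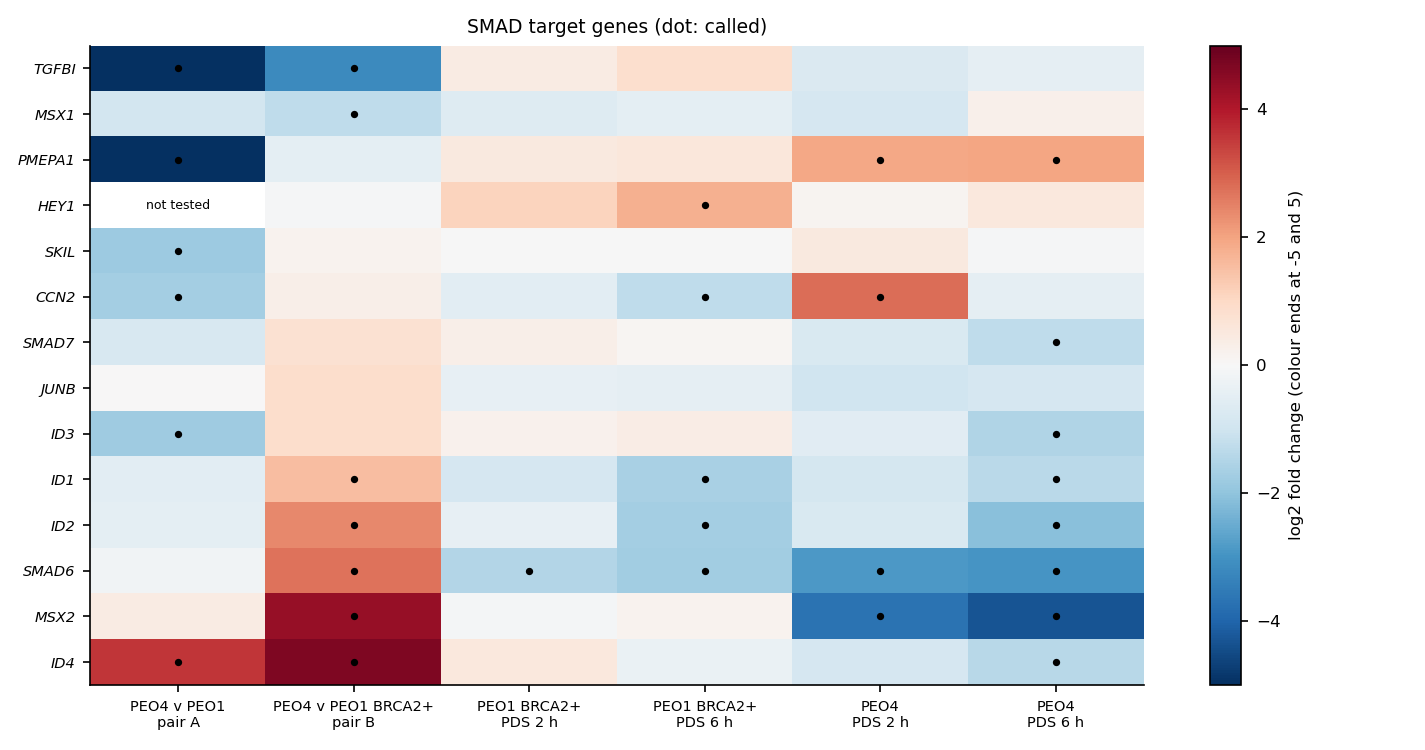
Log2 fold change of 14 of the SMAD target genes in 6 comparisons, with red for higher in PEO4 or after PDS and blue for lower; dots mark called genes, and colours end at -5 and 5. In the last column (PEO4, PDS 6 h) 7 genes are called lower and PMEPA1 higher.

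Among SMADs and their regulators, 15 tested, 2 were lower in PEO4 in pair A (against 25.8% of all genes called). In pair B 1 was higher and 2 lower (24.8%). SKIL, a SMAD corepressor and TGF-beta target, was the lower gene furthest from 0 in pair A (-1.83 ± 0.07). After PDS in PEO4, SMAD3, which carries TGF-beta and activin signals, rose at 2 h (1.10 ± 0.07, from 101 ± 14.8 to 216 ± 4.30 CPM). It was 1 gene in all against 2 that fell (17.4% of all genes called). At 6 h 1 rose, SMURF2, a ubiquitin ligase of the pathway (1.04 ± 0.06), and 3 fell, with SMAD6 furthest (22.6% of all genes called). SMAD6 and SMAD7 belong to this list and to the target list and were counted in both.

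Of 25 other ligands of the family 13 were tested. In pair A 3 were higher and 1 lower in PEO4 (background 25.8% of all genes called), with BMP5 at 4.28 ± 0.470 CPM in PEO4 and 0.0139 ± 0.0241 CPM in PEO1. In pair B 3 were higher and 2 lower (24.8%). After PDS in PEO4 1 rose at 2 h (17.4%) and 4 fell at 6 h (22.6%). GDF15, a stress-induced cytokine, was 1.47 ± 0.905 CPM untreated and 4.69 ± 2.32 CPM at 2 h (1.66 ± 0.36, adjusted p = 0.000561), then 0.480 ± 0.207 CPM at 6 h.

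Across the 18 libraries of pair B, the genes most like each member in log2 level were sought among 14168 genes. These points share 6 conditions and their depth difference, so the correlations describe the shape of the pattern over conditions and nothing more. BMP4 and BMP7 followed each other (r = 0.967) and ran opposite to INHBA (r = -0.942 and -0.918). TGFB2 followed INHBB (r = 0.988), and INHBB itself was the second most like gene to TGFB2, after SAPCD2 (r = 0.993). INHBB was most like CCND1 (r = 0.994), BMP4 most like SCARA3 (0.991) and NRP2 (0.988), BMP7 most like APBB2 (0.985) and AXIN2 (0.982), and INHBA most like FRMD3 (0.987) and FAM107B (0.985). TGFB1 was most like UNC13D (0.984), BMP2 most like RASSF7 (0.975) and TGFB3 most like SPPL3 (0.973).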

How the data were processed

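RNA of 24 cultures was sequenced after poly(A) enrichment (with a stranded kit in pair A, and a kit not stated for pair B). The authors checked reads with FastQC, trimmed them with fastp and aligned them to hg38 with STAR. The submitters' processing notes also name featureCounts (versions, annotation and strand setting not given in the sources used here). The deposited tables hold raw counts per gene for pair A (6 libraries) and pair B (18 libraries). Lines lacking a count for any library (2 and 1) were left out. The members and gene lists were chosen with earlier results of these data known.

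Counts were filtered with filterByExpr (15882 genes kept in pair A, 17020 in pair B, 16888 in the joint fit of 12 untreated libraries), scaled by TMM and tested with edgeR 4.0.16 (R 4.3.3; robust quasi-likelihood, a mean per group, Benjamini-Hochberg adjustment over all genes tested). CPM use TMM-scaled totals. Called genes had an adjusted p under 0.05 with a log2 difference beyond 1 either way. Errors are SD (n = 3) for levels and SE for log2 fold changes. The tests were checked on simulated data. The lowest chi-square per degree of freedom between replicates was 2.08, so replicates differed beyond sampling noise; intervals cover these 3 cultures only. Within each list the genes named are the called gene furthest up and down with a mean of at least 1 CPM; others, such as ID1 to ID3, TGFBR3 and RGMA, were chosen after their values were seen, and some list genes are counted but not reported here by name. Libraries were not treated as paired by replicate number. In 0 of 16 pairs of groups did all 3 same-numbered correlations exceed 0.1, a rule that cannot exclude pairing with 3 replicates. Alternatives were other scalings, filters and samples, DESeq2 1.42.0, thinned counts, a replicate block and each library left out.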

Additional observations from a re-analysis of the deposited data

Results flagged for a closer look

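For the members below the direct test of the difference between lines or pairs was called by edgeR. In the 2 h response to PDS, PEO4 differed from PEO1 BRCA2+ by -4.17 for BMP4, -3.64 for BMP7, 3.31 for INHBA, -3.17 for INHBB and -4.38 for TGFB2 on the log2 scale. In the 6 h response the differences were -1.05 for BMP2, -3.96 for BMP4, -3.97 for BMP7, 2.24 for INHBA, -2.91 for INHBB and -3.46 for TGFB2. Without the untreated PEO4 library that stood apart (replicate 2), the 2 h values were -4.53 for BMP4, -3.94 for BMP7, 3.85 for INHBA, -3.35 for INHBB and -4.49 for TGFB2, all still called. The difference between PEO4 and the PEO1 line was not the same in the 2 pairs: pair B less pair A gave 3.73 for BMP2, 5.70 for BMP4, -3.41 for BMP7, 5.95 for INHBA, 2.94 for INHBB, 3.09 for TGFB1 and 4.95 for TGFB2, and the BRCA2 state of PEO1 cannot be told apart from the separate preparation of the pairs. Groups held 3 libraries each, too few for a test of single outlying libraries.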

How the results depend on the processing

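Of 192 alternative counts of members called, 179 were within 1.5 times the reported count, and of 1536 alternative member values 1491 kept their direction and their side of the thresholds, 11 lost the call, 18 gained it and 16 changed sign. Each change of sign was in a value of at most 0.17 in size that was not called. The count for PEO4 at 6 h against 2 h was 2 with library totals or upper-quartile scaling (INHBA joined TGFB2), 4 with the adjusted p alone, and 0 to 2 with 1 library left out (0 without PEO4 2 h replicate 2). In PEO1 BRCA2+ it was 2 at 6 h with DESeq2 or with only the compared groups in the fit (BMP4 joined BMP2), 2 at 2 h and at 6 h with no filter on low counts (GREM1 joined), and 3 at 2 h and 4 at 6 h with the adjusted p alone. Of all 17020 genes, 10237 passed the adjusted p alone in PEO4 at 6 h against 2 h. In PEO1 BRCA2+ 8947 did so at 2 h and 9024 at 6 h. None of these counts of members with the adjusted p alone exceeded the share of all genes. Signs changed with library totals for INHBA (-0.0078) and TGFB1 (-0.0057) at 2 h and BMP7 (-0.079, and -0.020 with upper quartiles) at 6 h in PEO1 BRCA2+, and with thinned counts for TGFB3 between its times (-0.074). With 1 library left out they changed for BMP4 in pair A (-0.50 to 0.67), BMP7 (-0.067 to 0.22) and TGFB1 (-0.16 to 0.027) at 6 h in PEO1 BRCA2+, TGFB3 between its times (-0.095 to 0.17), TGFB3 in the 2 h line difference (-0.059 to 0.26) and BMP2 between times in PEO4 (-0.20 to 0.013). The cause was not tested. A replicate block gave the same counts of members called in all 11 comparisons (7 in pair A, 8 in pair B untreated, 6 and 7 after PDS in PEO4); same-numbered libraries correlated between -0.295 and 0.526. Depth limits GREM1 in every library and TGFB2 in PEO4 of pair A. It also limits TGFB2 in PEO4 after PDS, at 5 to 11 counts per library at 2 h and 15 to 20 at 6 h.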
